A study of Equus caballus with 16 samples.

Results

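The comparison described here set extracellular vesicles (EVs) from the fluid of dominant follicles in the spring anovulatory season (SAN, March) against those of the fall ovulatory season (FOV, September) in mares. It covered 265 microRNAs (miRNAs), chosen because their mean exceeded 10 CPM (read counts scaled to a common library size) in SAN or in FOV, out of 686 miRNAs listed, of which 324 had a read in at least 1 library of the series and 282 passed the same minimum in at least 1 of 4 seasons. Of the 265, 222 exceeded the minimum in both seasons, 16 in SAN alone and 27 in FOV alone, and 148 exceeded 10 CPM in each of the 7 libraries compared. The minimum cut close to single reads, with miR-503 just inside it (a mean of 10.6 CPM in the higher season) and miR-449a just outside (9.65 CPM).

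The mare is a seasonal breeder. In the spring transition a large follicle grows to preovulatory size and usually regresses without ovulating, whereas in September the dominant follicle still ovulates before the ovary becomes inactive for the winter. The follicle encloses the oocyte in granulosa cells and an avascular fluid, and vesicles in that fluid carry small RNAs between cells. A miRNA is a short RNA that guides a silencing complex to messenger RNAs, and it finds them mainly through its seed, bases 2 to 8 from the 5′ end. MiRNAs with the same seed can therefore act on overlapping sets of messages.

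All libraries came from mares of 8 to 14 years under natural light, with no treatment beyond sedation and the ultrasound-guided ablation that started each follicular wave. The SAN group was SAN_1 to SAN_4 (4 libraries, spring anovulatory), and the FOV group was FOV_2 to FOV_4 (3 libraries, fall ovulatory). The remaining fall library, FOV_1, was set aside in the study because its profile lay close to SAN, and its value is given beside the results. Follicles of 30 to 35 mm were aspirated in both seasons, and each library held the vesicles of 2 to 3 mares combined, so the spread between libraries is that between such combinations. The study describes its mares as sampled across the 4 seasons, so mares may recur in SAN and FOV, but no label ties a library to its mares. The libraries were treated as independent. Libraries of the other 2 seasons, spring ovulatory (SOV, 4 libraries) and summer (SUM, 4 libraries), entered the fit and are quoted where they place a value.

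Every deposited value was a whole multiple of the worth of 1 read in its library, so reads could be recovered. Reads assigned to miRNAs numbered 36328 to 94216 in SAN and 39341 to 112146 in FOV, with 62160 in FOV_1, and 1 read stood for 12.3 to 30.3 CPM in SAN and 9.65 to 22.6 CPM in FOV. SAN libraries detected 212 to 225 miRNAs and FOV libraries 231 to 251. The 20 most abundant miRNAs of a library held 83.0% to 87.9% of its reads in SAN, 78.5% to 82.8% in FOV and 87.8% in FOV_1. A vesicle preparation mixes the output of every cell that sheds into the fluid, so fewer vesicles of a cell type and less of a miRNA in each of them cannot be told apart.

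The sequences that carry the main results are printed first, so that the members of a family can be told from each other. They are the mature horse sequences in the study's own lists (eca, Equus caballus), written 5′ to 3′ with T for U, and the capitals mark the seed. The let-7 family, whose best known role is to hold back growth-promoting messages in differentiating cells, includes the miRNA that was higher in SAN, let-7c.
eca-let-7c: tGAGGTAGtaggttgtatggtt
eca-let-7a: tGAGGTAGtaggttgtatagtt
eca-let-7f: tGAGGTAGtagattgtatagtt
eca-let-7e: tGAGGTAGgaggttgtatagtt
All share the seed GAGGTAG. Counted from 1 at the 5′ end, let-7c differed from let-7a by A19G alone, and let-7f from let-7a by G12A, so that reads with 1 sequencing error can pass between them.

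The next pairs share a seed, and are shown because their members differ by only 1 or 2 bases outside it and their shares within each pair are among the results.
eca-miR-99a: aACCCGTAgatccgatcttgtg
eca-miR-100: aACCCGTAgatccgaacttgtg
eca-miR-27a: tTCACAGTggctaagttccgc
eca-miR-27b: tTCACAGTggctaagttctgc
eca-miR-192: cTGACCTAtgaattgacagcc
eca-miR-215: aTGACCTAtgaattgacagac
The differences were T16A from miR-99a to miR-100, C19T from miR-27a to miR-27b, and C1A with C20A from miR-192 to miR-215.

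The remaining sequences belong to miR-1298, which was lower in SAN, and to the miRNAs of the results that follow.
eca-miR-1298: tTCATTCGgctgtccagatgta
eca-miR-146a: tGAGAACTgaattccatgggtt
eca-miR-92a: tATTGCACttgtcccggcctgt
eca-miR-363: aATTGCACggtatccatctgta
eca-miR-96: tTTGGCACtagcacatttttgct
MiR-92a and miR-363 share the seed ATTGCAC although 12 of their 22 bases differ. No genome of the horse was at hand, so the positions of these miRNAs are not given.

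Between SAN and FOV, 2 of the 282 miRNAs tested passed an adjusted p of 0.05 (limma on log2(CPM + 1), Benjamini-Hochberg) with a fold of at least 2, here termed called (0.709%). Let-7c was called higher in SAN (1 miRNA, 0.355%) and miR-1298 was called lower in SAN (1 miRNA, 0.355%). Both are among the 265. An unadjusted p under 0.05 was reached by 10 miRNAs with higher values in SAN (3.55%) and by 32 with lower values (11.3%), all of them among the 265. Some of the 32, such as miR-302c and miR-302d, had no read in SAN and were tested only because FOV passed the minimum, which fixed their direction. Since 27 of the 265 passed the minimum in FOV alone of the pair and 16 in SAN alone, these counts do not compare the 2 directions evenly. The next smallest adjusted p after the calls was 0.0570, for miR-27a, which was lower in SAN.

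Without a test, every SAN library lay above every FOV library for 10 miRNAs (3.55% of those tested), and every SAN library lay below every FOV library for 25 (8.87%). Log2 FC was positive, that is higher in SAN, for 102 of the 265 and negative for 163, with a median of -0.44, against -0.43 over all 282 tested. The lean lay in the scarce miRNAs, where those above the minimum in only 1 season of the pair had the direction of their means set by that choice. Of the 138 with a mean above 100 CPM over the 7 libraries, 63 were positive and 75 negative, with a median of -0.11. The median SE of a log2 FC was 0.62 above 100 CPM and 1.68 for the 127 miRNAs at or under it, so only large differences could be seen among scarce miRNAs. Since 1 CPM is added before the logarithm and means are taken on that scale, a library at 0 can move the log2 FC of a miRNA well away from the ratio of its mean levels. MiR-193a-5p, chosen as an example after its values were seen, had 0, 19.01, 18.2 and 711 CPM in SAN_1 to SAN_4, against 249, 268 and 279.9 CPM in FOV_2 to FOV_4, and its log2 FC was -3.54 in limma and -0.45 in edgeR. The median over all 282 was -0.23 in edgeR, -0.14 in DESeq2, -0.21 with 20 CPM added in place of 1 and -0.23 with FOV_1 kept.

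**Figure D1:**
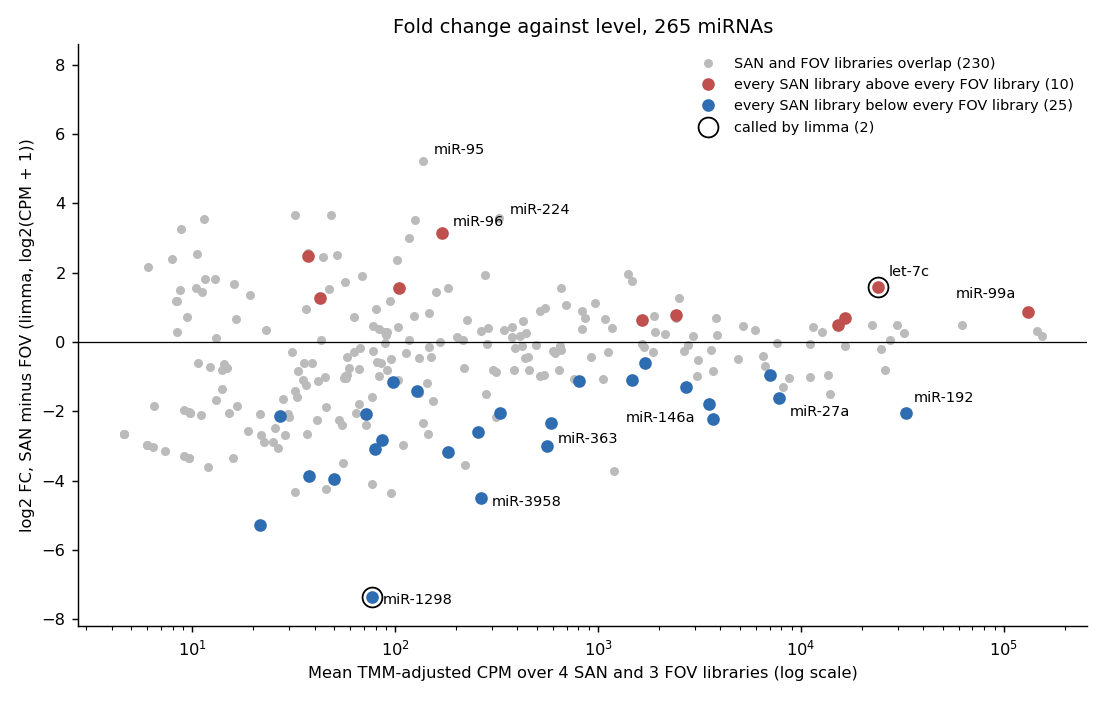
Log2 FC between SAN and FOV (vertical axis, SAN minus FOV) against the mean level of each of 265 miRNAs over 7 libraries (horizontal log axis, CPM). Each point is a miRNA, red where all SAN libraries lay above all FOV libraries (10) and blue where they lay below (25), and rings mark let-7c and miR-1298, the 2 called. Points fan out towards low levels, where single reads decide the value.

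The number of calls depended on the tool. On the recovered reads, edgeR's quasi-likelihood test called none, with a lowest adjusted p of 0.0555 and 51 unadjusted p under 0.05, of which 17 were higher in SAN. DESeq2 called 12, with let-7c, miR-96, miR-206 and miR-214 higher in SAN (4 miRNAs, 1.42%) and miR-1388, miR-146a, miR-192, miR-27a, miR-323-3p, miR-363, miR-3958 and miR-409-3p lower (8 miRNAs, 2.84%), while 139 adjusted p, that of miR-1298 among them, were not given by DESeq2.

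Let-7c, among the 12 most abundant miRNAs of the vesicles, rose in SAN. It had 21981, 39117, 50744 and 23282 CPM in SAN_1 to SAN_4, against 9036, 11852 and 10712 CPM in FOV_2 to FOV_4, and FOV_1 held 14269 CPM. The lowest SAN library stood above the highest of the 4 fall libraries, FOV_1 included, and SAN_2 and SAN_3 stood above SAN_1 and SAN_4. The mean was 33781 ± 13732 CPM in SAN and 10533 ± 1416 CPM in FOV (SD, n = 4 and n = 3), and limma gave a log2 FC of 1.60 (SE 0.33, adjusted p = 0.0213). SOV libraries ranged from 14891 to 17281 CPM and SUM libraries from 8415 to 16178 CPM, so every library of these seasons lay below every SAN library. The call was lost without FOV_2 (adjusted p = 0.0760), without SAN_2 (0.0889) and without SAN_3 (0.0610) in the same limma fit, while the log2 FC stayed between 1.37 and 1.78 over all alternatives run. It was also lost with equal library totals (adjusted p = 0.0541), with TMM over 15 libraries (0.0502), with the 2 seasons fitted alone (0.129) and by edgeR (0.0555).

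All 7 measured members of the let-7 family had a positive log2 FC, with a median of 0.88 against -0.43 over all miRNAs tested, and 1 of them was called. Of the 7, 3 reached an unadjusted p under 0.05 (let-7c, let-7a and let-7e; 42.9%, against 3.55% of all miRNAs tested with higher values in SAN), and 3 lay higher in SAN without overlap (let-7c, let-7a and let-7f; 42.9%, against 3.55%). All 7 stayed positive under each of the 3 other scalings and with FOV_1 kept. Let-7a had 17015, 20148, 25208 and 16294 CPM in SAN_1 to SAN_4, against 11686, 13749 and 10759.8 CPM in FOV_2 to FOV_4, with 15292 CPM in FOV_1 (log2 FC 0.69, SE 0.26, limma adjusted p = 0.261). FOV_1 thus lay above its own season and below every SAN library. SOV libraries, at 17036.5 to 18963 CPM, lay within the SAN range, and SUM libraries, at 10827.5 to 12175.5 CPM, lay below it.

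Let-7f had 16228, 15567, 16829.7 and 19702 CPM in SAN_1 to SAN_4, against 14721, 15512 and 7874 CPM in FOV_2 to FOV_4, and in FOV_1 it had 22472 CPM, above each SAN library. SAN_2 and FOV_3 nearly met. SOV libraries, at 19463 to 26022 CPM, lay above SAN_1 to SAN_3, and SUM libraries, at 8526 to 13000.5 CPM, lay below every SAN library. Let-7e, which lies in another cluster beside miR-99b and miR-125a in mammals, had 908, 1483, 1672 and 858 CPM in SAN_1 to SAN_4, against 657, 893 and 270.2 CPM in FOV_2 to FOV_4. The log2 FC of let-7e was 1.12 (SE 0.45, limma adjusted p = 0.278). FOV_4 was its lowest library, and FOV_3 lay above SAN_4. The other members, let-7d, let-7g and miR-98, had log2 FC of 0.88, 0.49 and 0.90, none past the test and all with overlapping libraries.

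Summed over the 7 members, the family stood at 81837, 99219, 119135 and 96084 CPM in SAN_1 to SAN_4, against 55509, 64615 and 44429 CPM in FOV_2 to FOV_4 and 81100 CPM in FOV_1. That was 7.44% to 11.7% of a SAN library, 4.11% to 7.02% of an FOV library and 7.14% of FOV_1. The family made up 8.10% to 8.80% of an SOV library, inside the SAN range, and 5.38% to 6.12% of a SUM library. Within the family, let-7c made up 26.9%, 39.4%, 42.6% and 24.2% in the SAN libraries, against 16.3%, 18.3% and 24.1% in the FOV libraries and 17.6% in FOV_1. The share of let-7c in the family, which no scaling can change, was thus higher in each SAN library than in each fall library. SAN_4 and FOV_4 almost touched. The share was 16.5% to 20.7% in SOV and 16.8% to 31.2% in SUM, where the highest library exceeded SAN_1 and SAN_4. SAN_1 and SAN_4, with less let-7c, had more let-7g, at 30.3% and 36.2% of the family, while SAN_2 and SAN_3 had 20.7% and 18.6%. The shares in this report were chosen after their values were seen, and no test is given for them.

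**Figure D2:**
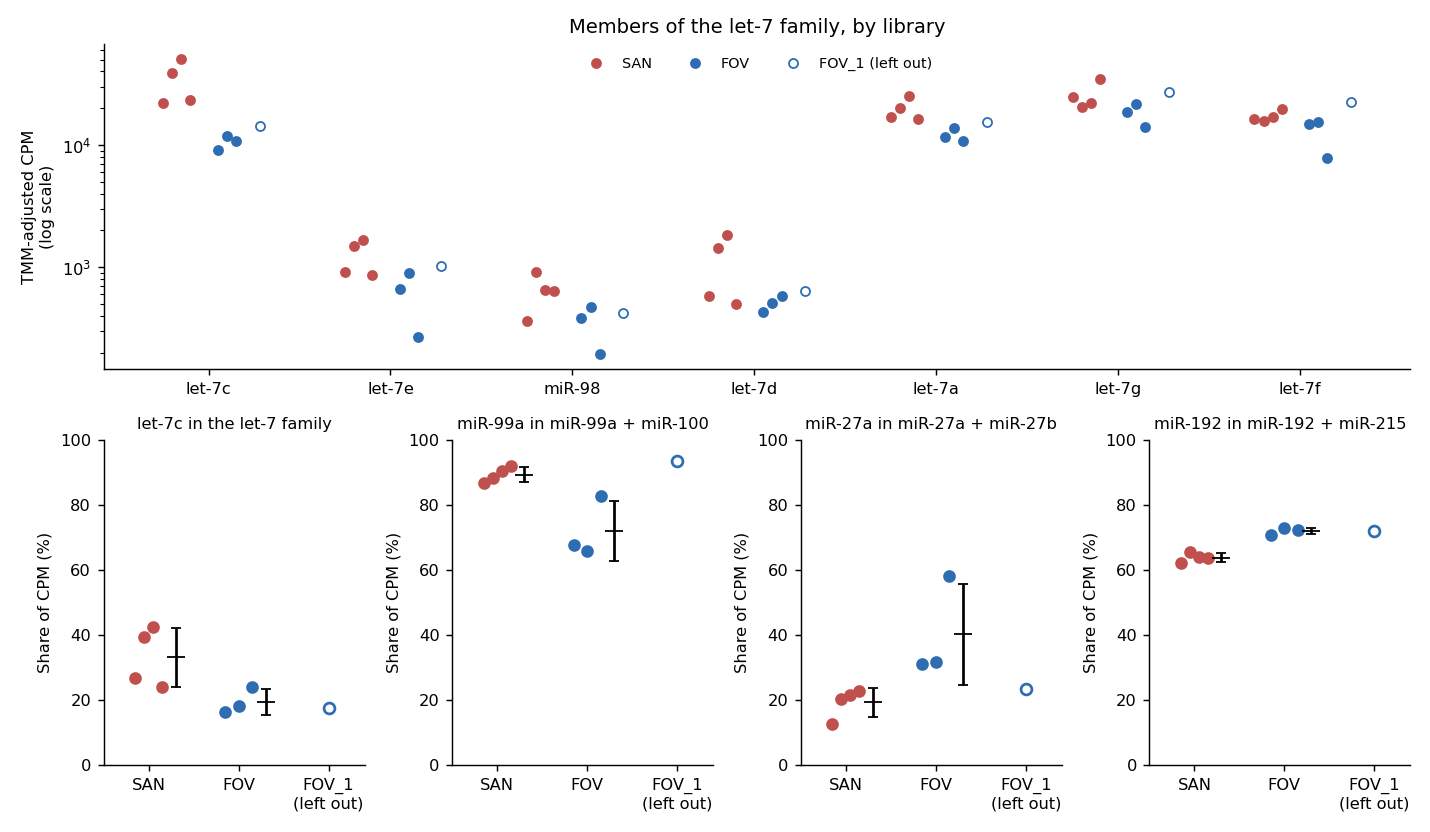
The upper panel plots each library's level (log axis, CPM) of the 7 let-7 family members, with SAN in red, FOV in blue and FOV_1 as an open circle. The lower panels plot 4 shares within pairs or families in percent, with bars for mean and SD. Let-7c made up 24.2% to 42.6% of the family in SAN and 16.3% to 24.1% in FOV, and the shares of miR-99a, miR-27a and miR-192 also did not overlap.

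Let-7c is transcribed with miR-99a and a copy of miR-125b in mammals, and let-7a in part with miR-100 and another copy of miR-125b. MiR-99a and miR-100 share their seed and are best known for lowering the growth kinase MTOR in human cells. MiR-99a, the third most abundant miRNA here, had 168367, 131703, 156884 and 193223 CPM in SAN_1 to SAN_4, against 88393, 85841 and 93036 CPM in FOV_2 to FOV_4, and FOV_1 had 139400.0 CPM. All SAN libraries lay above all 3 FOV libraries, and FOV_1 lay within the SAN range. The log2 FC was 0.85 (SE 0.37), with an adjusted p of 0.308 in limma.

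MiR-100, by contrast, had 25826, 17392, 16684 and 16502 CPM in SAN_1 to SAN_4, against 42124, 44215 and 19358 CPM in FOV_2 to FOV_4, with 9573 CPM in FOV_1 (log2 FC -0.82, SE 0.36, limma adjusted p = 0.308). FOV_2 and FOV_3 stood high, FOV_4 lay inside the SAN range, and SAN_1 was high for its season. The share of miR-99a in the pair was 86.7%, 88.3%, 90.4% and 92.1% in SAN_1 to SAN_4, against 67.7%, 66.0% and 82.8% in FOV_2 to FOV_4. In FOV_1 the share was 93.6%, above every SAN library, and it was 86.0% to 93.2% in SOV and 86.2% to 95.1% in SUM, so that the 3 FOV libraries, and not SAN, stood apart from the other libraries in this measure.

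Of the 6 measured miR-99, miR-100 and miR-125 miRNAs, 5 were positive, with a median log2 FC of 0.57, and none was called by limma or DESeq2. MiR-99b had 3239.6, 5835, 5870.4 and 3396 CPM in SAN_1 to SAN_4, against 2786, 3348 and 2152 CPM in FOV_2 to FOV_4 (log2 FC 0.70, limma adjusted p = 0.355), and SAN_2 and SAN_3 were its 2 highest libraries. MiR-125b-5p and miR-125a-5p, which share a seed and of which miR-125b is known to lower p53 in human cells, had log2 FC of 0.45 and 0.23 with overlapping libraries. MiR-125a-3p, the other arm of the same precursor as miR-125a-5p, had 30.3, 247, 454 and 73.6 CPM in SAN_1 to SAN_4, against 45.3, 0 and 28.95 CPM in FOV_2 to FOV_4. SAN_2 and SAN_3 were high and the other 2 SAN libraries were not (log2 FC 3.51, SE 2.06, limma adjusted p = 0.397).

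MiR-1298 lies in humans within an intron of the serotonin receptor gene HTR2C and is best known from nervous tissue. It was the other call and was not detected in SAN. It had 0 CPM in SAN_1 to SAN_4, against 181, 268 and 86.9 CPM in FOV_2 to FOV_4, from 8, 12 and 9 reads. FOV_1 had 0 reads as well, none of the 4 SOV libraries had a read, and SUM_1 and SUM_4 had 5 and 3. The SAN libraries together allow up to 3 reads, or 13.4 CPM, by counting error, and the observed FOV mean was 13.4 times that limit. This ratio takes the 29 FOV reads as exact and leaves out FOV_1, so it is no lower bound of the difference. The ratio ran from 10.0 to 16.8 when an FOV library was left out and from 8.26 to 11.5 when a SAN library was left out.

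Limma gave miR-1298 a log2 FC of -7.35 (SE 1.42, adjusted p = 0.0184), a fitted value that depends on the added 1 CPM and is no bound either. The call was lost with FOV_1 kept (adjusted p = 0.111), without FOV_2 (0.0742), without SAN_2 (0.0678), without SAN_3 (0.0527) and by edgeR (0.0555). Of the 7 miRNAs of this cluster in the table, the other 6 had no read in any of the 7 libraries.

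**Figure D3:**
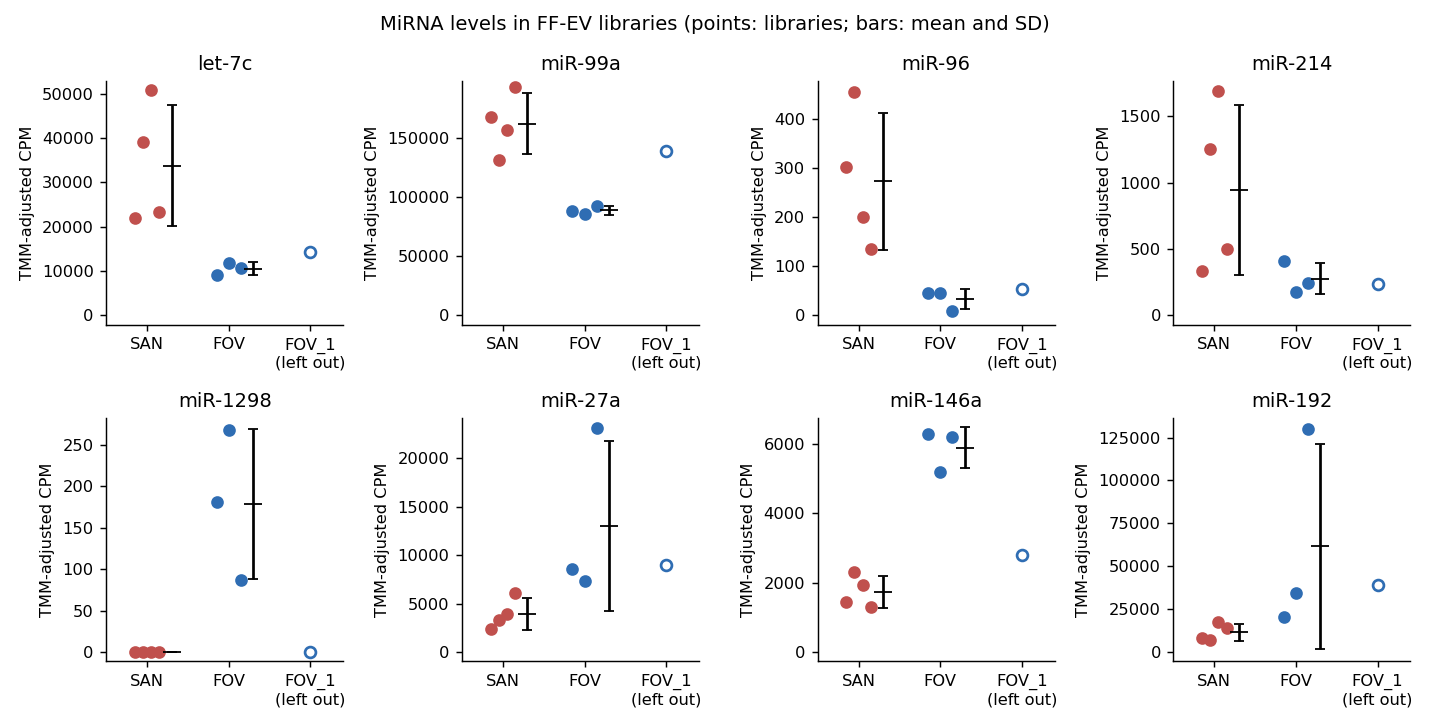
Levels of 8 miRNAs in each library (vertical axis, CPM, from 0). Red points are SAN libraries, blue points FOV libraries, bars their mean and SD, and the open circle is FOV_1. The upper row shows miRNAs with higher means in SAN, such as let-7c (21981 to 50744 CPM in SAN and 9036 to 11852 CPM in FOV), and the lower row those with lower means, such as miR-146a (1287 to 2300 CPM in SAN and 5200 to 6273 CPM in FOV).

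MiR-27a came next. It is made from 1 transcript with miR-23a and a copy of miR-24, and in human and mouse cells it is best known for holding back fat cell formation. It had 2331, 3345, 3889 and 6130.2 CPM in SAN_1 to SAN_4, against 8561, 7276 and 23122 CPM in FOV_2 to FOV_4, with 9007 CPM in FOV_1, and so all 4 fall libraries lay above all SAN libraries. The mean was 3924 ± 1606 CPM in SAN and 12986 ± 8801 CPM in FOV (SD, n = 4 and n = 3), with FOV_4 far above FOV_2 and FOV_3 (log2 FC -1.61, SE 0.39, limma adjusted p = 0.0570, DESeq2 adjusted p = 0.00597). SUM libraries, at 8537 to 10495 CPM, also lay above SAN, and SOV libraries, at 3219 to 3822 CPM, lay within the SAN range. Its adjusted p passed 0.05 in limma under 5 of 20 alternatives, among them those without FOV_3 (0.0398) and without SAN_4 (0.0229).

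MiR-23a, from the same transcript, had 878, 2433, 3489.5 and 2660.5 CPM in SAN_1 to SAN_4, against 1200.3, 1362 and 1226 CPM in FOV_2 to FOV_4 (log2 FC 0.74, limma adjusted p = 0.374), higher in SAN_2 to SAN_4 than in any FOV library. MiR-27a thus made up 72.6%, 57.9%, 52.7% and 69.7% of the sum of miR-27a and miR-23a in SAN_1 to SAN_4, against 87.7%, 84.2% and 95.0% in FOV_2 to FOV_4 and 85.1% in FOV_1. MiR-27b, the near copy from another cluster, had a log2 FC of -0.12 with overlapping libraries. The share of miR-27a in the pair with miR-27b was 12.9% to 22.8% in SAN, 31.1% to 58.3% in FOV and 23.4% in FOV_1. MiR-24, which both clusters make, had 3936, 14256, 14376 and 6032 CPM in SAN_1 to SAN_4, against 10667, 11941 and 34007 CPM in FOV_2 to FOV_4 (log2 FC -0.96, limma unadjusted p = 0.0492 and adjusted p = 0.326). Its log2 FC had the sign of that of miR-27a, but its libraries overlapped, and FOV_4 was by far the highest.

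MiR-146a, which the inflammatory factor NF-kB induces in human and mouse cells and which restrains the same pathway, had 1453, 2299.9, 1927 and 1287 CPM in SAN_1 to SAN_4, against 6273, 5200.5 and 6205 CPM in FOV_2 to FOV_4, with 2795 CPM in FOV_1. The FOV libraries lay close together, more than 2 times above the highest SAN library, and FOV_1 lay between the groups. The log2 FC was -1.79 (SE 0.45), with an adjusted p of 0.0586 in limma and 0.0169 in DESeq2. SUM libraries (2152 to 4096 CPM) and SOV libraries (810.0 to 3696 CPM) lay below the 3 FOV libraries. MiR-146b-5p, with the same seed, had 1877, 1787, 1854 and 3016 CPM in SAN_1 to SAN_4, against 5164, 5200.5 and 2654 CPM in FOV_2 to FOV_4 (log2 FC -0.99, limma adjusted p = 0.374), with FOV_4 inside the SAN range.

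MiR-192, miR-194 and miR-215 are made from 2 related clusters and are known as miRNAs of gut, liver and kidney epithelium that the factor p53 induces in human cells. All 3 had a negative log2 FC with an unadjusted p under 0.05 (100%, against 11.3% of all miRNAs tested with lower values in SAN). Of the 3, 2 lay lower in SAN without overlap (66.7%, against 8.87%), and none was called by limma. MiR-192 had 8235, 6843, 17284 and 14234 CPM in SAN_1 to SAN_4, against 20405, 34484 and 130169 CPM in FOV_2 to FOV_4, with 38787 CPM in FOV_1. Its SAN libraries lay below all 4 fall libraries, and FOV_4 alone held more than the other 2 FOV libraries together. The mean was 11649 ± 4939 CPM in SAN and 61686 ± 59724 CPM in FOV (SD, n = 4 and n = 3). The log2 FC was -2.05 (SE 0.65), with an adjusted p of 0.174 in limma and 0.0157 in DESeq2. SUM libraries had 46944 to 75872 CPM, all above SAN.

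MiR-215 had 4996, 3592, 9742 and 8116 CPM in SAN_1 to SAN_4, against 8379.6, 12812 and 49842 CPM in FOV_2 to FOV_4 (log2 FC -1.51, limma adjusted p = 0.326) and followed miR-192 from library to library. MiR-192 made up 62.2%, 65.6%, 64.0% and 63.7% of the pair in SAN_1 to SAN_4, against 70.9%, 72.9% and 72.3% in FOV_2 to FOV_4 and 71.9% in FOV_1. This share had the narrowest spread of those examined within pairs that separated the seasons, with an SD of 1.37 percentage points in SAN and 1.04 in FOV, and a difference of -8.17 points. In SOV it ranged from 60.5% to 72.2% and in SUM from 69.1% to 76.8%. MiR-194 had 0, 114, 109 and 36.8 CPM in SAN_1 to SAN_4, against 136, 134 and 743 CPM in FOV_2 to FOV_4 (log2 FC -3.19, limma adjusted p = 0.291), and its lowest FOV libraries stood close to SAN_2 and SAN_3.

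The 5 measured miRNAs with the seed ATTGCAC (miR-25, miR-32, miR-92a, miR-92b and miR-363) all had a negative log2 FC, with a median of -0.95, and limma called none, while DESeq2 called miR-363. With FOV_1 kept 1 of the 5 was positive and the median was -0.45, and with 20 CPM added it was -0.58. MiR-92a, of the miR-17 to miR-92a cluster that is known for driving proliferation, had 5419, 5151, 5761 and 3666 CPM in SAN_1 to SAN_4, against 7564, 9285 and 12362 CPM in FOV_2 to FOV_4, with 3983 CPM in FOV_1 (log2 FC -0.95, SE 0.30, limma adjusted p = 0.174). The groups did not overlap, but FOV_1 fell inside the SAN range. MiR-363, from a paralogous cluster, had 212, 152, 127 and 61.3 CPM in SAN_1 to SAN_4, against 1517, 1317 and 531 CPM in FOV_2 to FOV_4 and 0 CPM in FOV_1 (log2 FC -3.01, limma adjusted p = 0.291, DESeq2 adjusted p = 0.0374). Thus the 4 fall libraries held both the highest and the lowest values of miR-363. Of the 8 measured miR-17, miR-18, miR-19, miR-20 and miR-106 miRNAs, 4 were positive and 4 negative, with a median of 0.12, and miR-20a and miR-17 had log2 FC of -0.18 and 0.43.

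The DLK1-DIO3 locus is an imprinted region that makes many miRNAs from the maternal copy in mammals, and these miRNAs are known from brain, placenta and fetal muscle. Of 53 of its miRNAs in the table, 38 were among the 265 and 11 had no read in any of the 7 libraries. Log2 FC was negative for 30 of the 38 and positive for 8, with a median of -1.39 against -0.43 over all miRNAs tested. The median was -0.77 with 20 CPM added in place of 1, against -0.21 over all miRNAs tested in that fit. None was called by limma, and DESeq2 called miR-323-3p, miR-3958 and miR-409-3p lower. An unadjusted p under 0.05 with lower values in SAN was reached by 7 (18.4% of the 38, against 11.3% of all tested), and 5 lay lower in SAN without overlap (13.2%, against 8.87%). Members that passed the minimum through FOV alone, such as miR-154a with 3 reads in FOV and none in SAN, were lower in SAN by that choice. They count in the signs, the median and these shares, which are thus no even comparison of the seasons. Together the 38 made up 1.20%, 0.781%, 1.17% and 0.906% of SAN_1 to SAN_4, against 1.44%, 1.34% and 2.48% of FOV_2 to FOV_4 and 1.17% of FOV_1, which lay within the SAN range. In SOV their share was 0.461% to 0.989% and in SUM 1.58% to 2.37%.

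MiR-409-3p, the most abundant DLK1-DIO3 miRNA that did not overlap, had 1484, 1159, 1908 and 1398 CPM in SAN_1 to SAN_4, against 2197, 2567 and 8309 CPM in FOV_2 to FOV_4, with 3636 CPM in FOV_1 (log2 FC -1.30, SE 0.45, limma adjusted p = 0.189, DESeq2 adjusted p = 0.0294). All 4 fall libraries lay above SAN, and FOV_4 was highest. MiR-3958, known from this locus in sheep, had 0, 57.02, 90.9 and 36.8 CPM in SAN_1 to SAN_4, against 339.7, 335 and 994 CPM in FOV_2 to FOV_4, with 365 CPM in FOV_1 (log2 FC -4.52, SE 1.70, limma adjusted p = 0.254). Each of its 4 fall libraries held more than 3 times the highest SAN value. MiR-432 had 90.8, 247, 90.9 and 12.3 CPM in SAN_1 to SAN_4, against 362, 379 and 598 CPM in FOV_2 to FOV_4, with 859 CPM in FOV_1 (log2 FC -2.59, limma adjusted p = 0.189), and miR-494 had 303, 76.03, 164 and 73.6 CPM in SAN_1 to SAN_4, against 498, 402 and 782 CPM in FOV_2 to FOV_4 (log2 FC -2.05, limma adjusted p = 0.463). Both separated the groups in the same direction.

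MiR-323-3p had 121, 38.01, 218 and 110.3 CPM in SAN_1 to SAN_4, against 204, 491 and 1023 CPM in FOV_2 to FOV_4 (log2 FC -2.18, SE 0.71, limma adjusted p = 0.177, DESeq2 adjusted p = 0.0327), with SAN_3 just above FOV_2. The locus was not uniform. MiR-127, its most abundant member in SAN, had 5177, 2319, 4689 and 4205 CPM in SAN_1 to SAN_4, against 3148, 2812 and 4545 CPM in FOV_2 to FOV_4, and its log2 FC of 0.19 was positive, as were those of miR-370 (0.60) and miR-134 (0.06). MiR-381 and miR-379, which are also well expressed, had log2 FC of -0.28 and -0.32 with overlapping libraries. MiR-543 (-1.07), miR-382 (-1.495), miR-411 (-0.99), miR-495 (-0.86), miR-487b (-1.48), miR-656 (-2.98), miR-329b (-2.34) and miR-485-5p (-0.75) had negative log2 FC, with adjusted p of 0.364 to 0.682 in limma.

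**Figure D4:**
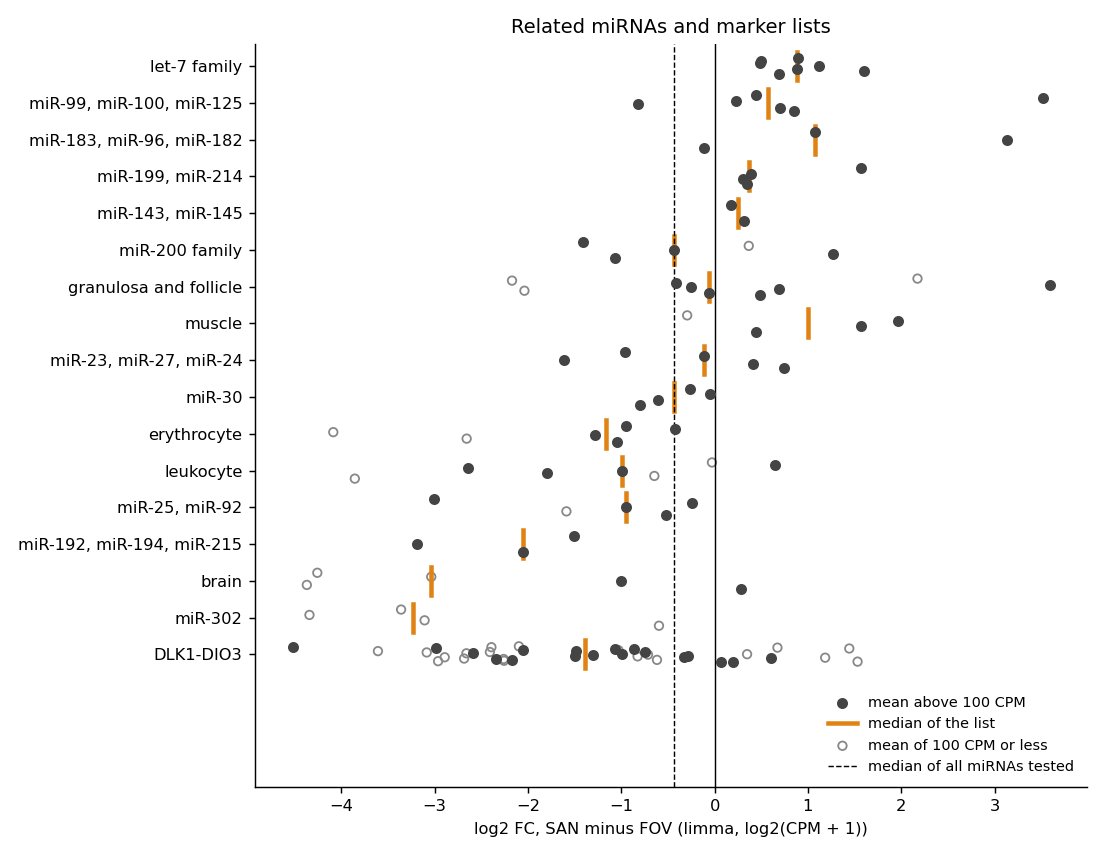
Log2 FC (horizontal axis, SAN minus FOV) of the measured members of 17 lists of related or marker miRNAs, 1 list to a row. Filled points have a mean above 100 CPM over the 7 libraries, open points 100 CPM or less, the orange bar is the median of the list, and the dashed line is the median of all miRNAs tested (-0.43). The let-7, miR-199 and miR-143 lists lie wholly to the right of 0. The miR-30, erythrocyte, miR-25 with miR-92, miR-192 and miR-302 lists lie wholly to the left. However, 1 miR-30 miRNA was positive with median-of-ratios scaling and 1 of the miR-25 with miR-92 list with FOV_1 kept. MiR-302a, miR-302c and miR-302d passed the minimum through FOV alone, which set their side.

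MiR-96, which is made with miR-182 and miR-183 and is best known from sensory organs, had 303, 456, 199.9 and 135 CPM in SAN_1 to SAN_4, against 45.3, 44.6 and 9.65 CPM in FOV_2 to FOV_4, with 54.8 CPM in FOV_1. Every SAN library lay above all 4 fall libraries. The log2 FC was 3.14 (SE 1.01), with an adjusted p of 0.174 in limma and 0.0169 in DESeq2. MiR-182 had 817, 950.4, 1199.5 and 564 CPM in SAN_1 to SAN_4, against 362, 714 and 251 CPM in FOV_2 to FOV_4 (log2 FC 1.08, limma adjusted p = 0.326), with SAN_4 below FOV_3. MiR-183 had 545, 665, 1018 and 343 CPM in SAN_1 to SAN_4, against 657, 558 and 733 CPM in FOV_2 to FOV_4 and a log2 FC of -0.11 (SE 0.46), within its error of 0 and without a settled direction, since edgeR gave 0.0083. With FOV_1 kept all 3 miRNAs of the transcript were positive.

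MiR-214 and the miR-199a miRNAs come from 1 transcript and are known from mesenchymal cells such as those of the theca. MiR-214 had 333, 1254, 1690.2 and 503 CPM in SAN_1 to SAN_4, against 408, 179 and 241 CPM in FOV_2 to FOV_4, with 238 CPM in FOV_1 (log2 FC 1.57, SE 0.57, limma adjusted p = 0.243, DESeq2 adjusted p = 0.0169). SAN_2 and SAN_3 were high, and SAN_1 fell below FOV_2. MiR-199a-3p had a log2 FC of 0.35 and miR-199a-5p of 0.30, both with overlapping libraries. All 4 measured members of that list were positive, with a median of 0.37 (0.17 with FOV_1 kept), and limma called none, while DESeq2 called miR-214.

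SAN_2 and SAN_3 were also the 2 highest of the 7 libraries for several other miRNAs. MiR-615-3p, from an intron of HOXC5, had 151, 3744, 4489 and 331 CPM in SAN_1 to SAN_4, against 67.9, 268 and 1216 CPM in FOV_2 to FOV_4 (log2 FC 1.77, SE 1.07, limma adjusted p = 0.416), and miR-615-5p was seen in those 2 libraries alone, at 19.01 and 36.3 CPM. MiR-221, which together with miR-222 is known for lowering the cell cycle inhibitor p27, had 999, 4961, 4889 and 1520.3 CPM in SAN_1 to SAN_4, against 1699, 1629 and 1293 CPM in FOV_2 to FOV_4 (log2 FC 0.69, limma adjusted p = 0.538). SAN_1 lay below all 3 FOV libraries in miR-221. MiR-328 had 242, 1026, 1436 and 257 CPM in SAN_1 to SAN_4, against 317, 335 and 203 CPM in FOV_2 to FOV_4 (log2 FC 0.98, limma adjusted p = 0.445), and miR-149 had 90.8, 798, 636 and 221 CPM in SAN_1 to SAN_4, against 249, 290.2 and 338 CPM in FOV_2 to FOV_4 (log2 FC 0.13, limma adjusted p = 0.926). In each of these the other 2 SAN libraries lay among or below the FOV libraries.

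MiR-200b, which keeps epithelial cells epithelial by lowering ZEB1 and ZEB2, had 757, 3611, 5761 and 3764 CPM in SAN_1 to SAN_4, against 1427, 826 and 1303 CPM in FOV_2 to FOV_4 (log2 FC 1.27, SE 0.67, limma adjusted p = 0.364). SAN_2, SAN_3 and SAN_4 lay above every FOV library and SAN_1 below them all. Of the 5 miR-200 miRNAs measured, 2 were positive and 3 negative, with a median of -0.44. MiR-200a had a log2 FC of -1.07, miR-200c of -0.44 and miR-429 of -1.41. MiR-429, made from 1 transcript with miR-200b, had 57.02 to 90.8 CPM in SAN and 136 to 246 CPM in FOV, without overlap and in the opposite direction to miR-200b (limma adjusted p = 0.594).

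MiR-95 had the second smallest unadjusted p among miRNAs with higher values in SAN. It had 303, 209, 18.2 and 368 CPM in SAN_1 to SAN_4, against 0, 0 and 57.9 CPM in FOV_2 to FOV_4, with 0 CPM in FOV_1 (log2 FC 5.23, SE 1.5, limma adjusted p = 0.152), with SAN_3 at 1 read. FOV_4 was the only FOV library with a read of miR-95. Leaving it out put FOV at 0 CPM throughout, so the smaller adjusted p of that limma fit (0.00955) followed from the removal and is no support. MiR-184 had 363, 133, 309 and 821 CPM in SAN_1 to SAN_4, against 204, 66.96 and 48.3 CPM in FOV_2 to FOV_4 (log2 FC 1.92, SE 0.75, limma adjusted p = 0.278), but in SUM it reached 949 to 8370.2 CPM, above every SAN library. MiR-532-5p, in contrast, had 606, 855, 1036 and 1508 CPM in SAN_1 to SAN_4, against 1676, 1875 and 2692 CPM in FOV_2 to FOV_4, without overlap and lower in SAN (log2 FC -1.10, SE 0.41, limma adjusted p = 0.254).

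MiR-1388 had 151, 133, 473 and 159 CPM in SAN_1 to SAN_4, against 861, 714 and 1592 CPM in FOV_2 to FOV_4 (log2 FC -2.32, SE 1.33, limma adjusted p = 0.392, DESeq2 adjusted p = 0.0330), without overlap. FOV_1, at 603 CPM, lay above each SAN library as well. SOV libraries ran from 0 to 376 CPM, and the SE took in that spread. The 4 measured miR-30 miRNAs and the 3 measured miR-29 miRNAs were all negative, with medians of -0.44 and -0.50 that lay near that of all miRNAs tested, and with median-of-ratios scaling or FOV_1 kept 1 of the miR-30 miRNAs was positive. MiR-30c did not overlap, at 1226 to 1599 CPM in SAN and 2046 to 2232 CPM in FOV.

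The 12 most abundant miRNAs held 70.9% to 78.8% of the CPM of a SAN library, 65.5% to 67.6% of an FOV library and 76.6% of FOV_1. Besides let-7c, miR-99a, miR-192 and miR-100, they were miR-10a, miR-10b, miR-21, miR-26a, miR-143, miR-148a, miR-423-5p and let-7g, and none of these 8 was called by limma or DESeq2. MiR-148a, the most abundant, had 186411, 77664, 118208 and 282319 CPM in SAN_1 to SAN_4, against 105379, 108183 and 195172 CPM in FOV_2 to FOV_4 (log2 FC 0.18, SE 0.48), so libraries of 1 season differed more than the season means. MiR-143, a miRNA of smooth muscle and other mesenchymal cells, had 180174, 171124, 138473 and 139608 CPM in SAN_1 to SAN_4, against 161409, 152331 and 79699.6 CPM in FOV_2 to FOV_4, with 272479 CPM in FOV_1 (log2 FC 0.32, SE 0.39). FOV_4 was low and FOV_1 the highest of the 8 libraries. MiR-143 made up 97.9% to 98.5% of its sum with miR-145 in SAN and 97.8% to 98.2% in FOV.

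MiR-21, known for protecting granulosa cells from apoptosis in the mouse, had 88255, 54171, 49181 and 93044 CPM in SAN_1 to SAN_4, against 52610.2, 55419.6 and 39912 CPM in FOV_2 to FOV_4, with 135253 CPM in FOV_1 (log2 FC 0.49, SE 0.60). SOV and SUM libraries covered a wider range, 34455 to 170946 and 31320.0 to 210821 CPM. MiR-10a and miR-10b, which lie in the HOX clusters, had log2 FC of 0.05 and 0.25, miR-26a of 0.49 and miR-423-5p of -0.20, all with overlapping libraries and limma adjusted p of 0.441 to 0.965. The SE of log2 FC for these 8 abundant miRNAs was 0.30 to 0.60.

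Lists of miRNAs that mark cell types were summed to show which sources could move with the season. The granulosa and follicle list had 9 measured members, 4 positive and 5 negative, with a median log2 FC of -0.06, and its sum was 60558 to 107315 CPM in SAN and 54783 to 62517 CPM in FOV, with 142707 CPM in FOV_1. With median-of-ratios scaling or FOV_1 kept, 5 of the 9 were positive. MiR-21 made up most of that sum. MiR-224, which in mouse granulosa cells responds to TGF-beta and raises estradiol release, had 60.6, 190.1, 164 and 1667 CPM in SAN_1 to SAN_4, against 67.9, 112 and 0 CPM in FOV_2 to FOV_4, so that SAN_4 alone was high (log2 FC 3.59, SE 1.74, limma adjusted p = 0.332). MiR-132, which LH induces in mouse granulosa cells, had a log2 FC of -0.06, miR-222 of -0.26 and miR-378 of -0.41, all with overlapping libraries.

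Markers of blood cells had lower sums in SAN. All 6 erythrocyte miRNAs were negative, with a median of -1.17, and none was called by limma or DESeq2. Of the 6, 2 reached an unadjusted p under 0.05 in limma (33.3%, against 11.3% of all miRNAs tested with lower values in SAN). MiR-92a was the only one without overlap (16.7%, against 8.87%). The sum of the 6 was 12064 to 20556 CPM in SAN against 32106 to 38970 CPM in FOV and 12972 CPM in FOV_1. MiR-451, which red blood cells make by a route of its own, had 8417, 4847, 3653 and 6277 CPM in SAN_1 to SAN_4, against 14947, 17432 and 5722 CPM in FOV_2 to FOV_4, with 2887 CPM in FOV_1 (log2 FC -1.05, SE 0.72, limma adjusted p = 0.463). FOV_4 lay inside the SAN range. MiR-486-5p had 4329.5, 5892, 10905 and 1667 CPM in SAN_1 to SAN_4, against 9376, 11495 and 13462 CPM in FOV_2 to FOV_4 (log2 FC -1.29, limma adjusted p = 0.364), and SAN_3 was as high as the FOV libraries.

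Of the 7 leukocyte miRNAs, 6 were negative, with a median of -0.99 (-0.59 with FOV_1 kept), none called by limma and miR-146a called by DESeq2, and their sum was 3754 to 4720 CPM in SAN against 9322 to 11981 CPM in FOV and 4531 CPM in FOV_1. MiR-146a and miR-146b-5p held most of that sum, and other cells make both. Of the markers closest to blood, miR-142-3p had 30.3, 0, 18.2 and 0 CPM in SAN_1 to SAN_4, against 90.6, 66.96 and 57.9 CPM in FOV_2 to FOV_4, miR-223 had 54.5 to 110.3 CPM in SAN and 45.3 to 179 CPM in FOV and miR-150 had 0 to 145 CPM in SAN and 135 to 294 CPM in FOV. MiR-142-5p, the other arm of the same precursor as miR-142-3p, overlapped, with 0 to 36.8 CPM in SAN and 0 to 22.6 CPM in FOV. The 1 positive member, miR-155, had 147 to 363 CPM in SAN and 90.6 to 223 CPM in FOV (log2 FC 0.65, limma adjusted p = 0.707). With FOV_1 kept, 3 of the 7 were positive, and with median-of-ratios scaling 2 of the 7. The part of blood cells in the differences of miR-92a and miR-146a was not tested.

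Liver, muscle, endothelial and brain markers were also present. MiR-122, the liver miRNA, had 4663, 2851, 4489 and 4070.4 CPM in SAN_1 to SAN_4, against 1200.3, 14664 and 14456 CPM in FOV_2 to FOV_4, with FOV_2 lowest and the other 2 FOV libraries highest (log2 FC -0.68, limma adjusted p = 0.675). The endothelial miR-126-3p and miR-126-5p had log2 FC of -0.04 and -0.31, and summed to 5652 to 9083 CPM in SAN and 4564 to 10101 CPM in FOV. Muscle miRNAs summed to 4201 to 55557 CPM in SAN and 3464 to 8651 CPM in FOV, and SAN_1 alone was above 6388 CPM in SAN, since miR-1 reached 48382 CPM there. MiR-206, another muscle miRNA, had 6812, 513, 1490.3 and 159 CPM in SAN_1 to SAN_4, against 566, 156 and 164 CPM in FOV_2 to FOV_4, with 36.5 CPM in FOV_1 (log2 FC 1.96, SE 1.14, limma adjusted p = 0.392, DESeq2 adjusted p = 0.0392). SAN_1 was again far the highest and SAN_4 lay between FOV_3 and FOV_4. The part of muscle RNA in the difference of miR-206 was not tested.

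Of the 5 brain miRNAs measured, 4 were negative, and the median of -3.04 was that of miR-137, which had 2 reads in FOV and none in SAN. With 20 CPM added in place of 1 the median was -1.0. MiR-9a, the most abundant of them, had 27188, 17563, 14267 and 1704 CPM in SAN_1 to SAN_4, against 11324, 12521 and 4371 CPM in FOV_2 to FOV_4, with 603 CPM in FOV_1, and a log2 FC of 0.28. MiR-128 had 3754, 8876, 14794 and 5174 CPM in SAN_1 to SAN_4, against 10848, 12254 and 21722 CPM in FOV_2 to FOV_4 (log2 FC -1.003, SE 0.45, limma adjusted p = 0.311). The other 3, miR-124, miR-137 and miR-138, had at most 290 CPM in any of the 7 libraries, and their sums rest on few reads. The 4 measured miR-302 miRNAs, best known from embryonic stem cells, were all negative with none called by limma. They summed to 0 to 90.8 CPM in SAN and 38.6 to 603 CPM in FOV, with 0 CPM in FOV_1. MiR-302a, miR-302c and miR-302d passed the minimum through FOV alone, so their lower means in SAN followed from that choice. They had 2, 10 and 3 reads in FOV. MiR-302b had 60.6, 19.01, 18.2 and 0 CPM in SAN_1 to SAN_4, against 90.6, 335 and 38.6 CPM in FOV_2 to FOV_4 (log2 FC -3.11, SE 1.65, limma adjusted p = 0.364).

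Some miRNAs had reads in 1 season of the pair alone. There were 20 with reads in FOV and none in SAN, with 2 to 29 reads each and a median of 3, and 14 of them were seen in at least 2 FOV libraries. Only miR-1298 (29 reads), miR-9021 (13 reads) and miR-302c (10 reads) had at least 10. MiR-9021 had 0 CPM in SAN_1 to SAN_4, against 22.6, 22.3 and 106 CPM in FOV_2 to FOV_4 and 18.3 CPM in FOV_1 (limma adjusted p = 0.174). MiR-302c had 0 CPM in SAN_1 to SAN_4, against 45.3, 179 and 0 CPM in FOV_2 to FOV_4 (limma adjusted p = 0.174). MiR-302c had no read in SOV or SUM either, so it was tested only because FOV passed the minimum. Of the 20, 17 had reads in SOV or SUM and 4 in FOV_1.

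In the other direction 8 miRNAs had reads in SAN and none in the 3 FOV libraries, with 2 to 18 reads each and a median of 3.5. Only miR-672 had at least 10, with 18 reads, at 0, 228, 109 and 0 CPM in SAN_1 to SAN_4, all from SAN_2 and SAN_3, and 0 CPM in FOV_2 to FOV_4 and FOV_1 (limma adjusted p = 0.326). At this depth a miRNA with no read in FOV could still be present at up to 15.02 CPM over the 3 libraries, and one with no read in SAN at up to 13.4 CPM over the 4, by counting error only.

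FOV_1 did not side with 1 season. On the log scale it lay nearer the SAN mean than the FOV mean for 134 of the 265 miRNAs, and for 17 of the 35 that separated the groups. With FOV_1 counted as an FOV library, 20 of those 35 still did not overlap. Above 100 CPM, 24 miRNAs separated the groups, 15 of them still did so with FOV_1, and FOV_1 lay nearer SAN for 11. It held SAN-like values of miR-99a, miR-92a, miR-363, miR-1298 and the erythrocyte list, and FOV-like values of let-7c, miR-96, miR-27a, miR-192, miR-409-3p and miR-3958.

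**Figure D5:**
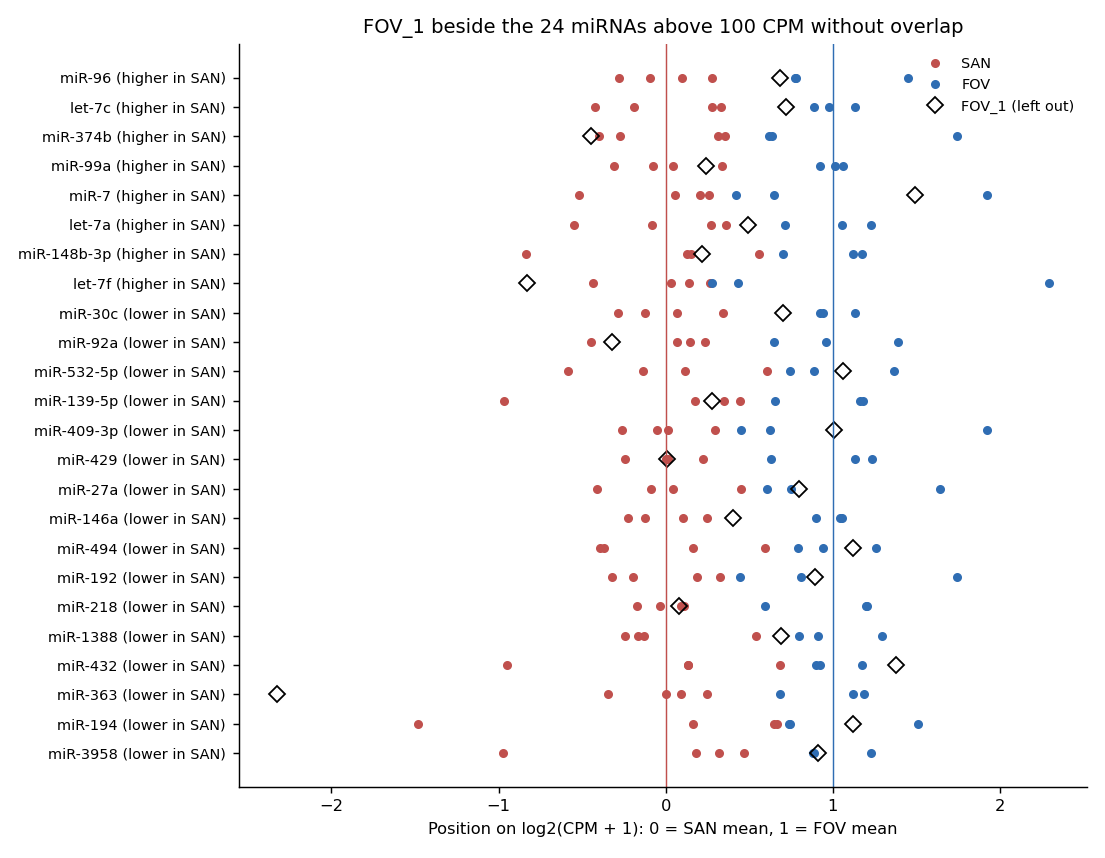
Position of each library on a scale of log2(CPM + 1) where 0 is the SAN mean and 1 the FOV mean, for the 24 miRNAs above 100 CPM whose SAN (red) and FOV (blue) libraries did not overlap, 1 miRNA to a row. The open diamond is FOV_1, which took no part in choosing them. It lay nearer 1 for miR-27a, miR-192, miR-409-3p and miR-3958 and at or beyond 0 for miR-363, miR-92a, miR-374b and let-7f.

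The miRNAs held 207 distinct seeds, and 35 seeds were shared by 2 or more miRNAs, 93 in all. Log2 FC had 1 sign throughout for 21 of these 35 seeds (10 positive, 11 negative) and mixed signs for 14. The largest seed group was let-7, with 7 of 7 positive. The seed of miR-15a and miR-16, AGCAGCA, had 3 of 6 positive, and that of miR-17 and miR-20a, AAAGTGC, 3 of 5. The seed group of miR-99a, miR-99b and miR-100 summed to 154930 to 213121 CPM in SAN, 114546 to 133404 CPM in FOV and 152262 CPM in FOV_1, so the sum was higher in each SAN library although miR-100 was not.

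Length and base composition are given as a description, with no test. The median length was 22 bases for the 10 miRNAs above FOV in every SAN library, for the 25 below, and for all 265. Their median GC content was 40.0%, 45.5% and 47.6%. Across the 138 miRNAs above 100 CPM, Spearman's rho with log2 FC was -0.06 for GC content and 0.02 for the mean level, as a description across miRNAs that share the same 7 libraries. Over all 265, rho with the mean level was 0.22, along with the lean of scarce miRNAs towards lower values in SAN.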

How the data were processed

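Small RNA of follicular-fluid EVs was sequenced in 16 libraries of 4 seasons, and 7 of them (4 SAN, 3 FOV) were compared here. The deposited values are a signal in TMM-adjusted CPM. The authors describe trimming, mapping to EquCab3.0 and annotation against miRBase in CLC Genomics Workbench, while the submitters' processing notes name bcl2fastq, Bowtie2 2.2.2 and DESeq2, and which of these made the values was not settled. Each CPM value divided by the worth of 1 read in its library was whole for 100% of values, within 1e-06 reads. No pair of libraries was a copy (lowest chi-square per degree of freedom 9.06 over 28 pairs).

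The 282 miRNAs whose mean passed 10 CPM in any season entered limma 3.58.1 (R 4.3.3). It modelled log2(CPM + 1) by season over 15 libraries, leaving out FOV_1, with variances moderated along a trend with level. The SE and p of a log2 FC thus take in the spread within SOV and SUM as well as within SAN and FOV. The contrast was SAN minus FOV, two-sided, with Benjamini-Hochberg adjustment over the 282. Calls required both an adjusted p below 0.05 and at least a 2-fold change. edgeR 4.0.16 and DESeq2 1.42.0 were run on the recovered reads as alternatives, and the other alternatives are given in the closing section. The fit was tested on simulated data. Levels are per read, with no length term, and preparation of small RNA libraries favours some sequences, so levels of different miRNAs are not molecule numbers. Counting intervals and limits from 0 reads, taken as 3 reads, cover counting error only. Figures were drawn with Python 3.11.15 and matplotlib 3.10.9.

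MiRNAs were eligible for naming if called by any of the 3 tools, among the 12 smallest p in either direction or among the 12 most abundant. So were list members with a mean above 100 CPM, the 2 highest of each list, and those named in the study for a SAN difference. Not all eligible list members are described. Among those left out were miR-29a (log2 FC -0.28), miR-34a (-1.69), miR-34c (1.43), miR-133a (1.57) and miR-195 (0.36). Of miRNAs with reads in 1 season alone, those with at least 10 reads were named. MiR-193a-5p, miR-503, miR-449a, miR-615-5p, miR-142-3p, miR-142-5p, miR-154a, miR-223, miR-374b, miR-124, miR-137 and miR-138 were mentioned outside parts of this rule, after their values were seen. The comparison and its lists were chosen with earlier results of these data known. Sequences were taken from the study's supplementary lists and matched by name for 265 of 265 miRNAs. EV size, target prediction and enrichment were not analysed here.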

Additional observations from a re-analysis of the deposited data

Results flagged for a closer look

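Among 104 miRNAs examined in the 4 SAN libraries, 9 had 1 library far from the other 3 (Dixon's test at 95%, which flags about 1 in 20 groups by chance). In SAN_1, miR-1 stood at 48382 CPM (3364 to 6130 CPM in the other 3), miR-100 at 25826 CPM, miR-106b at 303 CPM and miR-134 at 575 CPM, all above the others, and miR-200a at 151 CPM below them. In SAN_4, miR-146b-5p stood at 3016 CPM, miR-199a-3p at 11525 CPM and miR-224 at 1667 CPM, each above the others. In SAN_3, miR-1388 stood at 473 CPM. SAN_1 had the fewest reads of the 4 SAN libraries (36328) and SAN_4 the most (94216), and the part of depth in these values was not tested. FOV, with 3 libraries, was not examined in this way.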

How the results depend on the processing

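The 2 calls became 1 with FOV_1 kept (0 lower), 5 with a pseudocount of 20 CPM (4 lower), 4 with a minimum of 100 CPM (3 lower), 2 with equal library totals (0 higher, 2 lower), 1 with TMM over 15 libraries (0 higher), 3 with SAN and FOV fitted alone (0 higher, 3 lower), 0 by edgeR (0 higher, 0 lower) and 12 by DESeq2 (4 higher, 8 lower). They were 2 with pseudocounts of 0.25 and 5 CPM, without a filter, over the 265 alone, with median-of-ratios scaling and without a fold threshold. Leaving out a library gave 0 to 5 calls, 0 to 2 higher and 0 to 3 lower in SAN, with 0 without FOV_2, SAN_2 or SAN_3. The 35 miRNAs without overlap became 20 with FOV_1 kept and 45 to 68 with a library left out. Median-of-ratios scaling gave 37 (13 higher, 24 lower) and equal totals 37 (7 higher, 30 lower). Of 771 values of 37 named miRNAs under the alternatives, 731 kept direction and side of the threshold, 13 lost a call, 24 gained one, 3 without a call moved and 0 reversed. The other scalings placed the median log2 FC of all miRNAs at -0.34 (median of ratios), -0.51 (equal totals) and -0.44 (TMM over 15 libraries), against -0.43. It was -0.14 by DESeq2, -0.23 by edgeR, -0.21 with a pseudocount of 20 CPM, -0.32 with 5 CPM, -0.28 without a filter, -0.23 with a minimum of 100 CPM, -0.23 with FOV_1 kept and -0.40 to -0.28 with a library left out, furthest from -0.43 without SAN_3. With 20 CPM the median of the DLK1-DIO3 list was -0.77 and that of the miR-302 list -1.3, which was -1.97 with FOV_1 kept, against -3.23.

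Replicate numbers showed no pairing of the libraries, as the deviations of same-numbered SAN and FOV libraries had correlations of 0.03, -0.01 and 0.007. These cannot show whether libraries shared mares, since no label ties a library to its mares. With the number as a replicate block the fit called 2 miRNAs (1 higher, 1 lower). Depth limits the scarce miRNAs, since 1 read is worth 9.65 to 30.3 CPM in the 7 libraries.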

Other observations

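A few abundant miRNAs outside the lists also differed between libraries, and they are given because of those values. MiR-130b had 1090, 893, 363 and 0 CPM in SAN_1 to SAN_4, against 2401, 2678 and 936 CPM in FOV_2 to FOV_4, and 0 CPM in FOV_1 (log2 FC -3.73, limma adjusted p = 0.441). SAN_4 and FOV_1 thus both lacked a miRNA that was well above 100 CPM in the other 6 libraries. MiR-218, known from motor neurons and from the endothelial SLIT genes that host it, had SAN libraries at 1018 to 1574 CPM and FOV libraries at 3329 to 8548 CPM, with 1498 CPM in FOV_1 (log2 FC -2.23, SE 1.29, limma adjusted p = 0.392). SUM libraries ran from 399 to 60987 CPM, and the SE took in that spread. MiR-7, best known from endocrine and nervous cells, had 3785, 2775, 2490 and 2562 CPM in SAN_1 to SAN_4, against 2016, 2277 and 1013 CPM in FOV_2 to FOV_4, while SUM libraries reached 39848 CPM (log2 FC 0.78, limma adjusted p = 0.707). MiR-148b-3p, with the seed of miR-148a, was also higher in each SAN library, at 1490 to 2771 CPM in SAN and 1132 to 1399 CPM in FOV (log2 FC 0.64, limma adjusted p = 0.416).

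SAN_4 and FOV_1 were alike in some other scarce or variable miRNAs. MiR-9a had 1704 CPM in SAN_4 and 603 CPM in FOV_1, against 4371 to 27188 CPM in the other 6 libraries, and miR-302 miRNAs had no read in either.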
